A study of Mus musculus with 8 samples.

Results

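The antioxidant genes examined here were 10 enzymes: Nqo1, Hmox1, Gclc, Gclm, Txnrd1, Srxn1, Gpx1, Gpx2, Sod1 and Sod2. They were chosen by name from a list of antioxidant enzymes and targets of the transcription factor Nrf2. No measured value entered the choice, although earlier results of these data were known. They are 10 of the 55414 genes of the count table and held 0.191% of all counts. All 10 had at least 1 count, and 9 of them were among the 10707 genes that passed the expression filter. Nqo1 did not pass it.

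Paneth cells (PCs) secrete antimicrobial peptides from the base of intestinal crypts. They were sorted by flow cytometry from the small intestine of 8 mice, and the bulk polyadenylated RNA of each mouse was sequenced. In the Milli-Q water group, 4 mice drank purified water for 7 days, and in the zinc group, 4 mice drank water holding 25 mM ZnSO4 for the same time. All 8 mice were then injected with TNF, an inflammatory cytokine, and PCs were taken 3 hours later, so that no library without TNF was present. The labels name no genotype, sex or age, and the methods of the study give C57BL/6J as the strain of its mice. In bulk RNA of this kind, fewer cells of a type and less RNA per cell cannot be told apart.

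Nrf2, encoded by Nfe2l2, is held at a low level by its partner Keap1, which marks it for degradation. Oxidants and electrophiles release Nrf2, which then binds antioxidant response elements near its target genes together with small Maf proteins, while Bach1 competes for the same elements. The targets make glutathione (Gclc, Gclm), keep thioredoxin and peroxiredoxins reduced (Txnrd1, Srxn1), and detoxify quinones and heme (Nqo1, Hmox1). Glutathione peroxidases (Gpx1, Gpx2) remove hydrogen peroxide, and superoxide dismutases supply it from superoxide. Sod1 is the cytosolic copper and zinc enzyme, and Sod2 is the mitochondrial manganese enzyme and a well-known target of TNF and NF-kB.

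To show what the members share in sequence, the core of the antioxidant response element, TGACNNNGC, was searched on both strands from 250 bases before to 50 bases after the start site of each gene's canonical transcript. The core was found once in 4 of the 10 members, Gclm, Txnrd1, Srxn1 and Sod1. It was found in 12.5% of the same windows of 21627 protein-coding genes. The 4 matches are shown because they are the only ones among the members. Each is printed 5′ to 3′ on the plus strand of GRCm39, which is also the strand of the gene, with 10 flanking bases and with the core in capitals. All 4 cores lie on the strand opposite to the gene.
Gclm: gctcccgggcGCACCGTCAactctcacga
Txnrd1: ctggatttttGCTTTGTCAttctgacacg
Srxn1: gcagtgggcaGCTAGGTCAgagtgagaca
Sod1: ggcgcgctgtGCAAAGTCAgtgacaatcc
The windows are chr3:122039062-122039090 for Gclm, chr10:82694938-82694966 for Txnrd1, chr2:151947462-151947490 for Srxn1 and chr16:90017303-90017331 for Sod1. The first base of the core lies at position -54 from the start site in Gclm, at -65 in Txnrd1, at 28 in Srxn1 and at -95 in Sod1. A match is a description of the letters and was not tested as a binding site. The other 6 windows did not hold these letters.

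Libraries held 10623658 to 15101627 counts. Levels are given as CPM, counts divided by a library size in units of 1e+06 that was scaled by the trimmed mean of M-values. A gene with no count in a library could still be present at a level worth up to 3 counts, which is 0.179 to 0.369 CPM. Zinc replicate 3 stood apart from the other libraries. Over the genes tested, its log2 CPM correlated with that of the others at 0.847 to 0.903, against 0.954 to 0.985 among the other 7. The comparison of zinc with Milli-Q water is therefore given with and without it for each member tested and each of the 9 lists of pathway genes. For the TNF response genes the levels in zinc replicate 3 are given, and the comparison only as counts and medians of the list. Of the metallothioneins, zinc-binding proteins induced by zinc, Mt1 stood at 254 CPM in zinc replicate 1 and 107 CPM in zinc replicate 2, above the Milli-Q water range of 36.0 to 68.2. It stood at 29.5 CPM in zinc replicate 3 and 45.0 CPM in zinc replicate 4, not above that range. Mt2 stood at 172, 49.8, 8.35 and 4.03 CPM in zinc replicates 1 to 4, where the Milli-Q water range was 4.00 to 22.9 CPM.

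No antioxidant gene passed the test between zinc and Milli-Q water. In the quasi-likelihood test of edgeR with Benjamini-Hochberg adjustment, 0 of the 9 members tested were called at an adjusted p under 0.05, and 0 of 10707 genes (0.0%) were called. An unadjusted p under 0.05 was found for 0 of the 9 members, against 10.2% of all genes. Of the 9 members, 7 had a lower mean fitted level with zinc, with a median log2 fold change (zinc over water) of -0.37, where the median over all genes tested was 0.01. When zinc replicate 3 was left out the median was -0.19 and again 7 of 9 were lower. In that fit, Txnrd1 and Gpx2, 2 of 9 members, had an unadjusted p under 0.05, against 8.06% of all genes, and neither passed after adjustment.

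**Figure D1:**
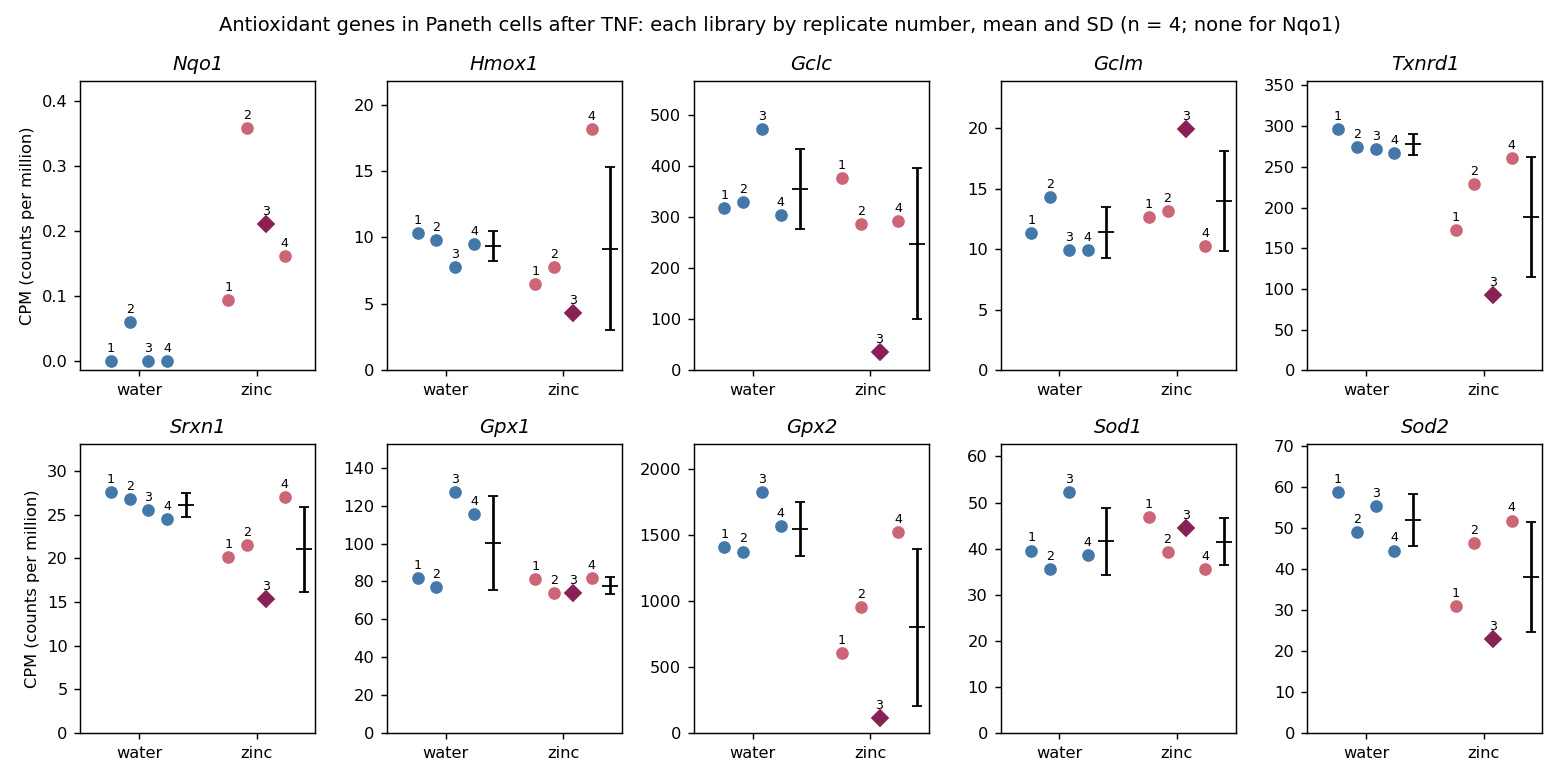
CPM (linear axis, 1 panel a gene) of the 10 antioxidant genes in the 4 Milli-Q water (blue) and 4 zinc (red) libraries, each point marked with its replicate number and zinc replicate 3 as a diamond; horizontal ticks with bars are the mean and SD (n = 4), not drawn for Nqo1. Zinc replicate 3 is the lowest point for 6 genes, among them Gpx2 at 114 and Gclc at 35.2 CPM, and the highest for Gclm at 19.9 CPM.

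Gclc and Gclm encode the catalytic and the modifier subunit of glutamate-cysteine ligase, the rate-limiting enzyme of glutathione synthesis. Gclc (ENSMUSG00000032350, chr9:77661797-77701770, plus strand) stood at 318, 328, 471 and 303 CPM in Milli-Q water replicates 1 to 4 and at 377, 287, 35.2 and 292 CPM in zinc replicates 1 to 4. The groups overlapped, Milli-Q water replicate 3 was the highest library and zinc replicate 3 stood 9.04-fold below the median of the other 7. The means were 355 ± 78.2 and 248 ± 148 CPM (SD, n = 4 each), and the log2 fold change was -0.52 (SE 0.522, 95% interval -1.68 to 0.64, edgeR adjusted p = 0.683). Without zinc replicate 3 the zinc mean was 319 ± 50.6 CPM (SD, n = 3) and the log2 fold change -0.15 (edgeR adjusted p = 0.841). The lower zinc mean of Gclc thus lay mainly in 1 library.

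Gclm (ENSMUSG00000028124, chr3:122039126-122065061, plus strand) went the other way in that library. It stood at 11.4, 14.4, 9.97 and 9.91 CPM with Milli-Q water and at 12.6, 13.2, 19.9 and 10.2 CPM with zinc. Zinc replicate 3 was the highest of the 8 libraries and the other 3 zinc libraries lay within the Milli-Q water range. Gclm had a log2 fold change of 0.29 (SE 0.220, 95% interval -0.19 to 0.78, edgeR adjusted p = 0.593), and 0.07 without zinc replicate 3 (edgeR adjusted p = 0.926).

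The counts of both subunits can be set against each other within a library, where no scaling factor enters. The ratio of Gclm to Gclc counts was 0.0357, 0.0437, 0.0211 and 0.0327 in Milli-Q water replicates 1 to 4 and 0.0336, 0.0460, 0.567 and 0.0351 in zinc replicates 1 to 4. In 7 libraries the ratio was 0.0460 or less, and zinc replicate 3 lay far above them. The mean log2 ratio was higher by 1.21 with zinc (exact permutation test over 70 assignments, two-sided p = 0.229, adjusted over 3 ratios 0.314, smallest p possible 0.0286). Without zinc replicate 3 it was higher by 0.23 (exact permutation p = 0.457, adjusted 0.629).

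Txnrd1 encodes the cytosolic thioredoxin reductase, a selenoprotein that returns thioredoxin to its reduced form. Txnrd1 (ENSMUSG00000020250, chr10:82669785-82733546, plus strand) stood at 296, 275, 272 and 267 CPM with Milli-Q water and at 172, 229, 93.0 and 261 CPM with zinc. The groups did not overlap: every zinc library lay below every Milli-Q water library, although zinc replicate 4 lay only just below. Txnrd1 was the 1 member of 9 with this pattern, which 3.12% of all genes tested showed with zinc lower, and 3.99% without zinc replicate 3, when it was again 1 member of 9. The means were 278 ± 12.8 and 189 ± 73.6 CPM (SD, n = 4 each). The log2 fold change was -0.56 (SE 0.270, 95% interval -1.16 to 0.04, edgeR adjusted p = 0.491). With zinc replicate 3 left out, the zinc mean was 221 ± 45.0 CPM (SD, n = 3). The log2 fold change was then -0.33 (SE 0.145, 95% interval -0.64 to -0.01, edgeR adjusted p = 0.608).

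Srxn1 encodes sulfiredoxin, which repairs overoxidized peroxiredoxins. Srxn1 (ENSMUSG00000032802, chr2:151947436-151957687, plus strand) stood at 27.6, 26.8, 25.6 and 24.5 CPM with Milli-Q water and at 20.1, 21.5, 15.4 and 27.1 CPM with zinc. Zinc replicates 1, 2 and 3 lay below the Milli-Q water range and zinc replicate 4 within it. Srxn1 had a log2 fold change of -0.31 (SE 0.169, 95% interval -0.69 to 0.06, edgeR adjusted p = 0.503), and -0.19 without zinc replicate 3 (edgeR adjusted p = 0.767).

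Gpx1 and Gpx2 encode selenium-dependent glutathione peroxidases, the first present in most tissues and the second found mainly in the epithelium of the gut. Gpx2 (ENSMUSG00000042808, chr12:76839107-76842326, minus strand) stood at 1407, 1375, 1826 and 1569 CPM with Milli-Q water and at 606, 953, 114 and 1523 CPM with zinc. Zinc replicates 1, 2 and 3 lay below every Milli-Q water library, zinc replicate 3 by the widest margin, and zinc replicate 4 lay within the Milli-Q water range. The means were 1544 ± 206 and 799 ± 593 CPM (SD, n = 4 each). The log2 fold change was -0.95 (SE 0.555, 95% interval -2.18 to 0.28, edgeR adjusted p = 0.521). Leaving out zinc replicate 3 gave a zinc mean of 1027 ± 463 CPM (SD, n = 3). The log2 fold change was then -0.58 (SE 0.248, 95% interval -1.12 to -0.05, edgeR adjusted p = 0.595). Of the transcript's 50-base words, 18.9% also occur in the pseudogene Gpx2-ps1, which held 14 counts in all 8 libraries against 118385 for Gpx2. Gpx2 also overlaps Fntb on the other strand, which held 1015 counts.

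Gpx1 (ENSMUSG00000063856, chr9:108216102-108217546, plus strand) stood at 81.8, 77.2, 127 and 115 CPM with Milli-Q water and at 81.1, 74.1, 74.1 and 81.9 CPM with zinc. Here zinc replicate 3 was like the other zinc libraries, and the spread lay in the Milli-Q water group, where replicates 3 and 4 were above all others. For Gpx1 the log2 fold change was -0.37 (SE 0.181, 95% interval -0.77 to 0.03, edgeR adjusted p = 0.491), and -0.34 without zinc replicate 3 (edgeR adjusted p = 0.650). With Milli-Q water replicates 3 and 4 and zinc replicate 3 all left out, it was -0.0057. That fit was added after the data had been seen. It drops the libraries where Gpx1 was highest, so a smaller difference follows from the choice.

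The ratio of Gpx2 to Gpx1 counts was 17.2, 17.8, 14.4 and 13.6 in the Milli-Q water libraries and 7.47, 12.9, 1.54 and 18.6 in the zinc libraries. Zinc replicates 1, 2 and 3 lay below the Milli-Q water range and zinc replicate 4 above it. The mean log2 ratio was lower with zinc, with a difference of -1.11 (exact permutation p = 0.2, adjusted 0.314), and -0.37 without zinc replicate 3 (exact permutation p = 0.4, adjusted 0.629).

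Sod2 and Sod1 were the pair with a link to TNF and to zinc. Sod2 (ENSMUSG00000006818, chr17:13224095-13259591, plus strand) stood at 58.7, 49.0, 55.4 and 44.5 CPM with Milli-Q water and at 31.0, 46.2, 22.9 and 51.8 CPM with zinc. Zinc replicates 1 and 3 lay below all Milli-Q water libraries, and zinc replicates 2 and 4 within their range. The means were 51.9 ± 6.40 and 38.0 ± 13.3 CPM (SD, n = 4 each), with a log2 fold change of -0.45 (SE 0.238, 95% interval -0.98 to 0.08, edgeR adjusted p = 0.502). Leaving zinc replicate 3 out gave -0.26 (edgeR adjusted p = 0.723).

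Sod1 (ENSMUSG00000022982, chr16:90017408-90027657, plus strand) stood at 39.6, 35.7, 52.3 and 38.7 CPM with Milli-Q water and at 46.9, 39.2, 44.5 and 35.6 CPM with zinc. The groups overlapped over most of their range, with means of 41.6 ± 7.35 and 41.5 ± 5.14 CPM (SD, n = 4 each). The log2 fold change was 0.00 (SE 0.158, edgeR adjusted p = 0.998), and the 95% interval of -0.35 to 0.35 bounds the difference that these libraries allow. Left without zinc replicate 3, it was -0.03 (edgeR adjusted p = 0.976). Sod1 overlaps Scaf4 on the other strand, which held 2555 counts against 4209 for Sod1, and the sources used here do not give the strand setting of the counting.

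The ratio of Sod2 to Sod1 counts was 1.48, 1.37, 1.06 and 1.15 with Milli-Q water and 0.661, 1.18, 0.516 and 1.46 with zinc. It was below 1 only in zinc replicates 1 and 3. The mean log2 ratio differed by -0.52 (exact permutation p = 0.314, adjusted 0.314), and by -0.27 without zinc replicate 3 (exact permutation p = 0.629, adjusted 0.629), so that neither difference passed.

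Hmox1 encodes heme oxygenase 1, which breaks heme down to biliverdin, iron and carbon monoxide. Hmox1 (ENSMUSG00000005413, chr8:75820241-75827217, plus strand) stood at 10.3, 9.77, 7.75 and 9.51 CPM with Milli-Q water and at 6.47, 7.75, 4.28 and 18.1 CPM with zinc. The zinc group held both the lowest libraries and the highest, zinc replicate 4, while the Milli-Q water libraries lay close together. For Hmox1 the log2 fold change was -0.03 (SE 0.374, 95% interval -0.86 to 0.79, edgeR adjusted p = 0.976). It was 0.21 without zinc replicate 3 and -0.61 without zinc replicate 4 (edgeR adjusted p = 0.880 and 0.240), so that its direction turned on which library was kept.

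Nqo1 encodes a quinone reductase and is often read as a marker of Nrf2 activity. Nqo1 (ENSMUSG00000003849, chr8:108113835-108129934, minus strand) held 0, 1, 0 and 0 counts in Milli-Q water replicates 1 to 4 and 1, 5, 3 and 2 counts in zinc replicates 1 to 4, or 12 in all. The highest library, zinc replicate 2, stood at 0.359 CPM. Each of the other 7 libraries held 3 counts or fewer, no more than an empty library could hide, so that no fold change is given. In CPM, every zinc library lay above every Milli-Q water library, with and without zinc replicate 3. Among all genes tested, which do not include Nqo1, 2.76% showed this pattern with all 8 libraries. For Nqo1 it rests on 11 counts with zinc and 1 with Milli-Q water. Zinc replicate 1 and Milli-Q water replicate 2 each held 1 count, so these 2 libraries differed only by their scaled size. With the expression filter lifted, Nqo1 had an adjusted p of 0.514 in edgeR and 0.731 in DESeq2, so that at this depth it did not pass (unadjusted p = 0.0299 in edgeR and 0.0530 in DESeq2).

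**Figure D2:**
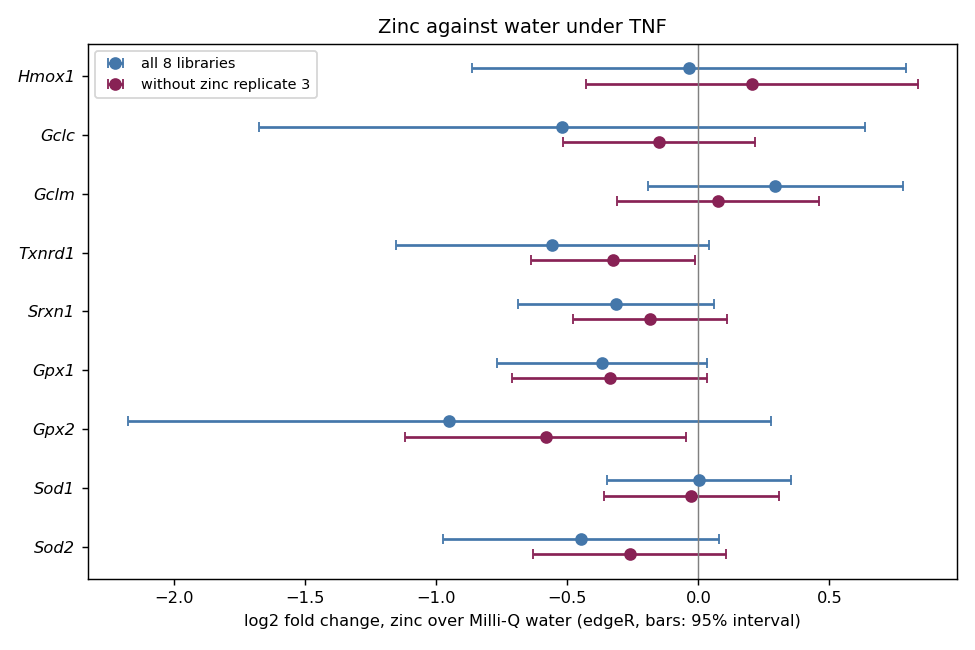
Log2 fold change of zinc over Milli-Q water (horizontal axis) for the 9 antioxidant genes tested, from the edgeR fit to all 8 libraries (blue) and without zinc replicate 3 (purple), with 95% intervals as bars. In the fit to all libraries every interval includes 0, and without zinc replicate 3 the intervals of Txnrd1 (-0.64 to -0.01) and Gpx2 (-1.12 to -0.05) lie below 0, before adjustment over all genes.

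Set per length, the levels of the members spanned a wide range. Per kilobase of all annotated exons, the mean over the 4 Milli-Q water libraries was 480 ± 64.0 CPM for Gpx2, 69.5 ± 17.1 for Gpx1, 56.7 ± 12.5 for Gclc and 39.2 ± 1.81 for Txnrd1. The remaining genes were far lower, at 5.31 ± 0.631 CPM per kilobase for Hmox1, 4.81 ± 0.850 for Sod1, 3.98 ± 0.491 for Sod2, 2.78 ± 0.144 for Srxn1 and 1.43 ± 0.261 for Gclm (SD, n = 4). Nqo1 came last at 0.0054. The ranges of Gpx1 and Gclc over the 4 Milli-Q water libraries overlapped, as did those of Hmox1, Sod1 and Sod2. Their order is not resolved, because it changed with the length used. Per kilobase of the longest coding transcript Gclc (99.6) came before Gpx1 (93.7), and Sod2 (8.49) and Sod1 (7.82) came before Hmox1 (5.92). Gpx2 came first by either length, but its level rose from 480 to 1453 CPM per kilobase, so the values themselves depend on the length used.

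In zinc replicate 3 the members did not move as 1 group. It was the lowest of the 8 libraries for 6 of the 9 members tested (Hmox1, Gclc, Txnrd1, Srxn1, Gpx2 and Sod2), where 30.0% of all genes had their lowest value in it, and the highest for 1 member, Gclm, where 29.8% of all genes had their highest value in it. Gpx2 and Gclc, 2 of 9 members, lay at least 2 log2 units below the median of the other 7 libraries, against 3.55% of all genes. Gpx2 was 12.3-fold below that median, which placed it at percentile 0.850 of all genes tested, and Gclc 9.04-fold below it, at percentile 1.23. Txnrd1 was 2.87-fold, Hmox1 2.22-fold, Sod2 2.13-fold and Srxn1 1.67-fold below. Gpx1 was 1.10-fold below, Sod1 stood at a log2 difference of 0.18 and Gclm at 0.80, all 3 within the 5th to 95th percentile of all genes (-1.64 to 1.43).

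Most TNF response genes were lower in the same library by more than Sod2 was. Nfkbia, the inhibitor of NF-kB that NF-kB itself induces, was 17.3-fold below the median of the other 7 libraries at 28.6 CPM, and Tnfaip3, which encodes the deubiquitinase A20, was 34.3-fold below at 2.46 CPM. Of the 15 TNF response genes tested, zinc replicate 3 was the lowest library for 14 and the highest for the other, Tnfaip2, at 6.03 CPM against 1.04 to 3.76 CPM. With zinc all 15 had a lower fitted level (median log2 fold change -0.42). Without zinc replicate 3 they were 6 higher and 9 lower (median -0.09). In edgeR an unadjusted p under 0.05 was found for 2 of 15 (10.2% of all genes). Without zinc replicate 3 it was found for 4 of 15 (8.06%), and none was called in either fit. Of 10 enzymes and partners that produce superoxide, hydrogen peroxide or nitric oxide, it was the lowest for 8, among them Nos2, the inducible nitric oxide synthase, at 0.351 CPM against 156 to 892 CPM in the other libraries. Duox2, a dual oxidase of the gut epithelium, stood there at 20.8 CPM against 495 to 1054 CPM.

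Markers of other cell types also moved in this library. The summed level of 10 enterocyte markers was 477 CPM in zinc replicate 3, against 91.1 to 118 CPM with Milli-Q water and 78.9 to 146 CPM in the other zinc libraries, and each of the 10 was highest there. The 9 PC markers summed to 404726 CPM, within the Milli-Q water range of 358808 to 617949 and the range of 343746 to 425369 of the other zinc libraries. Crypt stem cell markers summed to 1029 CPM in zinc replicate 3, 498 to 1084 CPM in the other zinc libraries and 436 to 620 CPM with Milli-Q water. Goblet cell markers summed to 10672 CPM there, against 10409 to 15088 and 12098 to 15397 CPM. Immune markers summed to 13.4 to 28.6 CPM over the 8 libraries, with Adgre1, Itgax and S100a8 at 0 in all, and stromal markers to 0.574 CPM or less, with Col1a1, Col1a2, Col3a1, Acta2 and Dcn at 0 in all. Enteroendocrine and tuft cell markers summed to 12.8 CPM in zinc replicate 3 and 0.985 to 11.2 CPM elsewhere. The part of these cell types in the levels of the antioxidant genes was not tested.

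**Figure D3:**
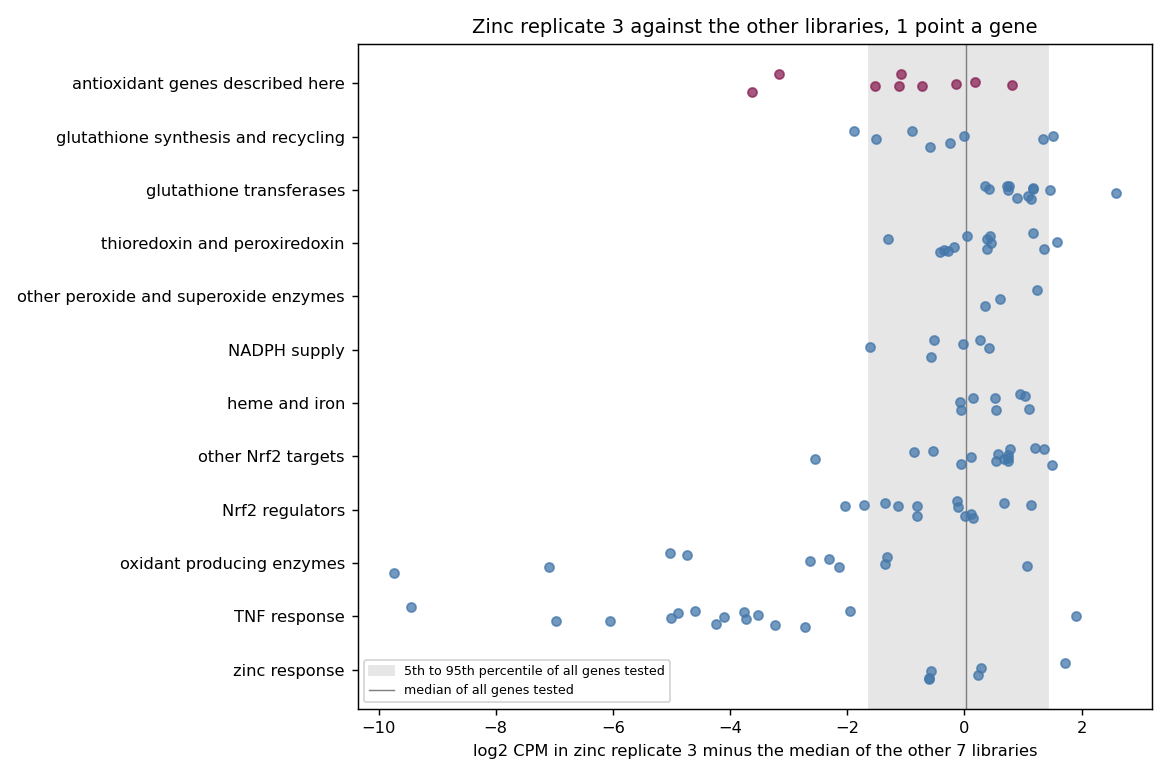
Log2 CPM in zinc replicate 3 minus the median of the other 7 libraries (horizontal axis, prior count of 2), 1 point a gene, for the 9 antioxidant genes tested and 11 lists of related genes; the grey band is the 5th to 95th percentile of all 10707 genes tested (-1.64 to 1.43) and the line their median, 0.03. Gpx2 at -3.62 and Gclc at -3.17 lie left of the band, while the other antioxidant genes lie within it, as do most glutathione transferases.

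Among the other 7 libraries, zinc replicate 1 was the lowest for 5 of the 9 members (Hmox1, Txnrd1, Srxn1, Gpx2 and Sod2), where 18.4% of all genes had their lowest value in it. For these 5 it was second only to zinc replicate 3 and lay below all 4 Milli-Q water libraries, as did 23.9% of all genes. It also held the highest Mt1, the highest sum of crypt stem cell markers (1084 CPM) and, among the other 7, the highest sum of enterocyte markers (146 CPM). The part of these in the levels of the 5 genes was not tested. Zinc replicate 2 lay below all 4 Milli-Q water libraries for 6 of the 9 members (Hmox1, Gclc, Txnrd1, Srxn1, Gpx1 and Gpx2), against 19.6% of all genes, although by narrow margins for Hmox1, Gclc and Gpx1. Zinc replicate 4 lay within the Milli-Q water range for 5 of the 9 members. It lay below all 4 Milli-Q water libraries for 3 (Gclc, Txnrd1 and Sod1), by narrow margins, and above all 4 for Hmox1. For zinc replicate 4 the share over all genes was not counted.

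Txnrd1, Srxn1, Gpx2 and Sod2 varied together over the libraries, although not in the same order. Within the Milli-Q water group Txnrd1 was highest in replicate 1 and Gpx2 in replicate 3. These 4 genes were not grouped in advance. Pearson's r of their log2 CPM was 0.932 to 0.985 over the 6 pairs in 8 libraries, and 0.851 to 0.932 in the 7 libraries without zinc replicate 3. Gclc was unlike them in the 7 libraries, with r of -0.13 to 0.07 against these 4 genes, although it was as high as 0.911 with Gpx2 when zinc replicate 3 was included. These values describe 8 libraries that share their treatment groups, and no p-value was attached.

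Over all genes tested, those most like Sod2 across the 8 libraries were Slc1a1 (r = 0.986), Adss2 (0.986), C3 (0.985), Tac1 (0.982) and Lcn2 (0.981). Slc1a1 encodes a transporter of glutamate and cysteine, C3 the third complement component and Lcn2 lipocalin 2, which binds bacterial siderophores. Without zinc replicate 3 the 5 most alike were Stom (0.988), Ripk3 (0.983), Tac1 (0.977), Tec (0.976) and Slc1a1 (0.971), so that Slc1a1 and Tac1 were in both lists. The highest correlations over 10707 genes and so few libraries are high by selection alone. Some of these genes were also near the floor. C3 stood at 0 to 3.49 CPM, and in zinc replicate 3 Lcn2 stood at 0.0702 and Tac1 at 0.140 CPM.

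**Figure D4:**
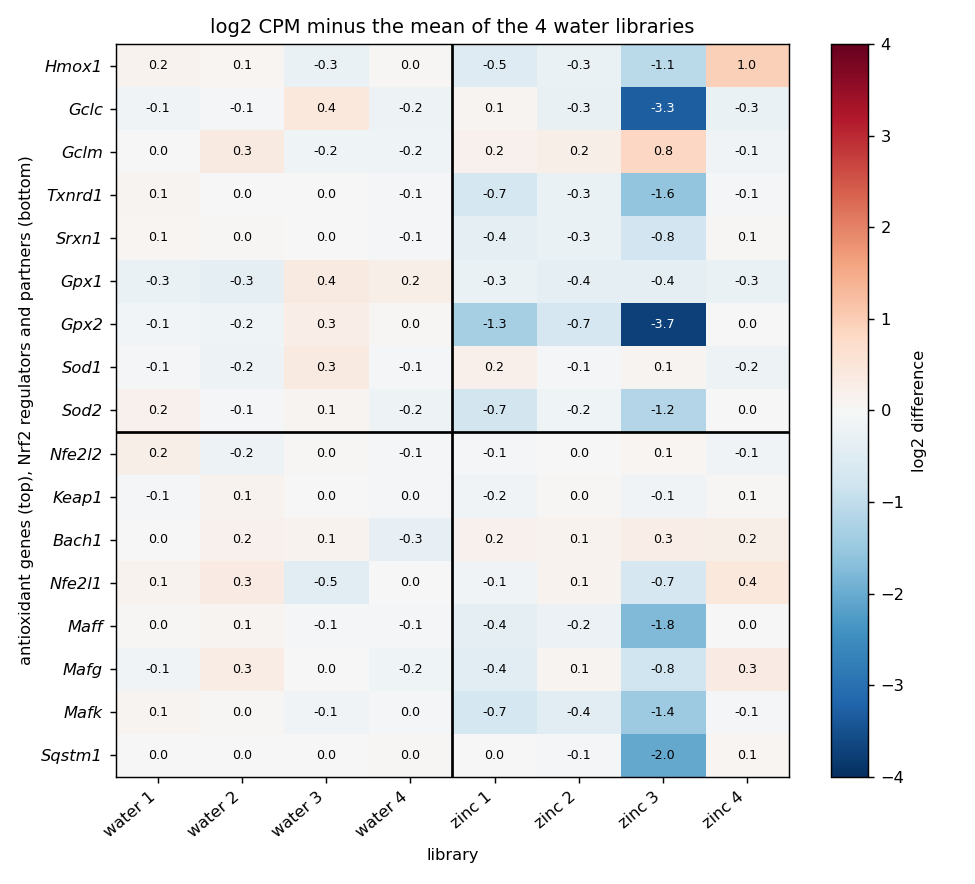
Log2 CPM of 9 antioxidant genes (top) and 8 Nrf2 regulators and partners (bottom) in each of the 8 libraries (columns), as the difference from the mean of the 4 Milli-Q water libraries (color and printed value). Zinc replicate 3 holds the darkest blue cells, Gpx2, Gclc and Sqstm1, while Nfe2l2, Keap1 and Bach1 stay near 0 in every library.

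The transcripts of the Nrf2 switch itself were also measured, and none passed the test. Nfe2l2 stood at 30.6 ± 3.98 CPM with Milli-Q water and 29.9 ± 1.95 CPM with zinc (log2 fold change -0.03, edgeR adjusted p = 0.934). Keap1 stood at 34.6 ± 2.19 and 33.4 ± 2.64 CPM (log2 fold change -0.05, edgeR adjusted p = 0.884), and Bach1 at 28.8 ± 4.18 and 32.7 ± 1.19 CPM (log2 fold change 0.18, edgeR adjusted p = 0.593; SD, n = 4 each). Leaving out zinc replicate 3 gave log2 fold changes of -0.06, -0.01 and 0.17. In zinc replicate 3 they stood at 32.3, 31.3 and 34.0 CPM, near the other libraries. Sqstm1, which encodes the p62 protein that binds Keap1, stood there at 231 CPM against 910 to 1013 CPM in the other 7 libraries.

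The wider pathway was described with 9 lists holding 105 genes, of which 88 were tested. None was called, 44 had a higher and 44 a lower fitted level with zinc, and the median log2 fold change was 0.01. Without zinc replicate 3 they were 38 higher and 50 lower, with a median of -0.02. Of the 88, 5 with zinc higher and 1 with zinc lower had an unadjusted p under 0.05, or 6.82%, against 10.2% of all genes. The smallest adjusted p was 0.485. In 3 of the 88 all zinc libraries lay above all Milli-Q water libraries, against 2.76% of all genes, and in 0 of the 88 they all lay below.

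Those 3 genes were Cat, Slc48a1 and Bach2. Cat, which encodes the peroxisomal hydrogen peroxide scavenger catalase, stood at 13.8 to 18.6 CPM with Milli-Q water and at 28.4, 25.0, 43.9 and 19.1 CPM with zinc (log2 fold change 0.81, SE 0.235, edgeR adjusted p = 0.485). Slc48a1, a heme transporter, stood at 13.1 ± 1.72 CPM (SD, n = 4) with Milli-Q water and at 19.0, 17.4, 32.3 and 16.9 CPM with zinc (log2 fold change 0.71, edgeR adjusted p = 0.485). Bach2, a relative of Bach1, was low at 2.03 ± 0.395 CPM (SD, n = 4) with Milli-Q water and at 5.90, 4.16, 5.68 and 2.74 CPM with zinc (log2 fold change 1.16, edgeR adjusted p = 0.485). Cat and Slc48a1 were highest in zinc replicate 3, and without it their log2 fold changes were 0.55 and 0.44, and that of Bach2 1.04.

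By role, the lists went different ways, and no member of any list was called. Of 8 genes of glutathione synthesis and recycling tested, 2 were higher and 6 lower with zinc, with a median log2 fold change of -0.06, and without zinc replicate 3 they were 3 and 5 (median -0.04). Of 12 glutathione transferases 11 were higher, with a median of 0.30, and zinc replicate 3 was the highest library for 10 of the 12. Without that library 7 were higher and 5 lower and the median was 0.12. Of 13 thioredoxin, peroxiredoxin and sestrin genes 6 were higher and 7 lower (median -0.08), among them Sesn1 at a log2 fold change of 1.19 and Txn1 at -0.31. With zinc replicate 3 left out they were 3 higher and 10 lower (median -0.15), Sesn1 stood at 0.69 and Txn1 at -0.22. The other peroxide and superoxide enzymes, Cat, Gpx4 and Ccs, had log2 fold changes of 0.81, 0.23 and 0.17, and zinc replicate 3 was the highest library for all 3. In its absence they were 0.55, 0.15 and -0.08, so that the direction of Ccs, the copper chaperone of Sod1, turned.

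Of 6 genes that supply NADPH 2 were higher and 4 lower (median -0.09), with Tkt, the transketolase of the pentose phosphate pathway, at a log2 fold change of 0.41. The counts became 3 and 3 (median -0.0038) without zinc replicate 3, and Tkt stood at 0.39. Heme and iron genes were 5 higher and 3 lower of 8 (median 0.07), and 4 higher and 4 lower (median -0.02) without that library. Of 15 further Nrf2 targets 11 were higher and 4 lower (median 0.30), and without zinc replicate 3 they were 9 higher and 6 lower (median 0.08). Akr1b8, an aldo-keto reductase, had the lowest log2 fold change of these at -1.21 and held 9 counts in zinc replicate 3, without which it was at -0.89. Of 13 Nrf2 regulators and partners 3 were higher and 10 lower (median -0.05), with Mafk, a small Maf protein, at -0.59. Here too the counts rested on zinc replicate 3: without it 6 were higher and 7 lower (median -0.01), and Mafk was at -0.39. The 10 oxidant-producing genes were 1 higher and 9 lower both with and without zinc replicate 3, with medians of -0.52 and -0.19.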

How the data were processed

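RNA was taken from PCs sorted from the small intestine of 8 mice, and libraries were made with a stranded mRNA kit per the labels. The authors deposited 1 table of raw counts per Ensembl gene, with whole numbers that were not normalized. The submitters' processing notes name FastQC 0.12.0, STAR 2.7.10a, DESeq2 and the mm39 build. The counter, annotation release, strand setting and rule for reads with several matches are not given in the sources used here. Symbols, coordinates and lengths came from GENCODE M39 on GRCm39, which matched 54749 identifiers. The 665 unmatched held 0.00443% of the counts.

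Groups followed the labels, with 4 mice each. The groups were compared in edgeR 4.0.16 (quasi-likelihood test, R 4.3.3), with TMM factors, the default expression filter and Benjamini-Hochberg adjustment over 10707 genes at a threshold of 0.05. The biological coefficient of variation was 0.269. The 3 ratios of counts within a library were compared by exact permutation of all 70 assignments, two-sided. Over 28 pairs of libraries no chi-square over genes fell below 6.05 for each degree of freedom, and each library counted as 1 replicate. Limits for a count of 0 cover counting error only. The fitting steps were tested on simulated data.

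The 10 members, the lists of related genes and the tests were chosen with earlier results of these data known. All members were named, then Nfe2l2, Keap1 and Bach1, in each list at most the 4 genes with the largest log2 fold change, then Nfkbia, Tnfaip3, Mt1 and Mt2, and the 5 genes most correlated with Sod2. Sqstm1, Duox2, Tnfaip2, Fntb, Scaf4 and Gpx2-ps1 were named after their values were seen. The alternatives were scaling by upper quartiles, by DESeq2 size factors or without the Defa genes, fits with no filter and with 100 counts and 1 CPM in at least 4 libraries, limma 3.58.1 voom with sample weights, DESeq2 1.42.0, a replicate block, each library left out in turn, and Milli-Q water replicates 3 and 4 left out. The fit that also left out zinc replicate 3, and levels per canonical transcript, were added after the data had been seen.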

Additional observations from a re-analysis of the deposited data

Results flagged for a closer look

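Of 24 groups of 4 values searched (the CPM of 9 genes and 3 ratios, in each group), 2 held a value that stood farther from the other 3 than Dixon's 95% critical value allows for 4 samples. Chance gives about 1.2 such groups in 24. The first was Gclc in Milli-Q water replicate 3 at 471 CPM, where the other 3 Milli-Q water libraries lay at 303 to 328 CPM and the gap was 0.852 of the group's range. That library also had the smallest TMM factor (0.758) and the highest sum of PC markers (617949 CPM). Gpx1, Gpx2 and Sod1 were highest in it too, so the high value was not particular to Gclc. The share of all genes highest there was not counted, and the cause was not tested. The second was the log2 ratio of Gclm to Gclc counts in zinc replicate 3 at -0.82, where the other zinc libraries lay at -4.90 to -4.44 and the gap was 0.889 of the range.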

How the results depend on the processing

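Under 18 alternatives, no antioxidant gene was called under any. Of 162 recomputed log2 fold changes of the 9 members tested, 148 kept their direction and 14 reversed, all in Hmox1, Gclm and Sod1. Hmox1 ran from -0.61 to 0.21 when each library was left out in turn and was 0.11 with Milli-Q water replicates 3 and 4 and zinc replicate 3 all left out, where Gclm was -0.094. Sod1 ran from -0.070 to 0.12 when each library was left out, and was -0.0076 with DESeq2 size factors, -0.0060 with no filter and -0.013 in DESeq2. An unadjusted p under 0.05 was found for 0 of 9 members in the main edgeR fit to all 8 libraries (10.2% of all genes). It was found for 5 of 9 without zinc replicate 4 (17.9%) and for 3 of 9 in limma-voom (12.4%). With no filter it was found for 3 of 10 (9.13%), which were Nqo1, Txnrd1 and Gpx2. Such a p was found for 2 of 9 without zinc replicate 3 (8.06%), 1 of 10 in DESeq2 (6.87%) and 1 of 9 with the replicate block (7.49%). It was found for 1 of 9 without Milli-Q water replicate 1 (7.82%) and for 1 of 9 without Milli-Q water replicate 2 (9.45%). In every other alternative it was found for 0 of 9, against 2.78% to 10.9% of all genes. Over all genes 4 were called in DESeq2 and 0 in every edgeR and limma-voom fit, with 1092 at an unadjusted p under 0.05 in edgeR, 1286 in DESeq2 and 1324 in limma-voom. That edgeR count was 641 without Milli-Q water replicate 3, 672 without Milli-Q water replicate 4, 1960 without zinc replicate 4 and 312 with Milli-Q water replicates 3 and 4 both left out; the cause was not tested. All 30 recomputed ratios kept their direction and stayed above the threshold. With the replicate block the p of a ratio could not fall under 0.05, because swaps within replicate numbers are too few. That setting therefore says nothing about the threshold.

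Libraries of the 2 groups with the same replicate number did not deviate together (correlations of deviations from the group means -0.03 to 0.03, and 0 of 8 libraries correlated best with their own number), so the numbers were not taken as pairs. With the replicate block 0 genes and 0 members were called, and 802 genes had an unadjusted p under 0.05. In that fit the log2 fold change was -1.33 for Gpx2 and -0.65 for Txnrd1.

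Values rest on 4 mice per group, 1 time point and no library without TNF. The values of Nqo1 rest on 12 counts.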
